A study of Mus musculus with 62 samples.

Results

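The comparison set the livers of sham-operated mice on a diet with 7% of its calories from protein (P7) against those of sham-operated mice on a diet with 36% (P36), the lowest and the highest protein share in the study. The libraries were chosen by the names of their columns in the table of counts. Those names gave 7 P7 and 5 P36 libraries, which is 12 of the 57 libraries with counts. The P36 libraries carry the numbers 1, 2, 3, 5 and 6 and the P7 libraries 2 to 8, and 1 more labelled sample of each group was not analysed here. All mice were male C57BL/6J, an inbred strain prone to diet-induced obesity. They were bought at 5 weeks of age and first ate a Western diet for 12 weeks, with 42% of its calories from fat and 15.2% from protein. At 17 weeks they were matched for weight, randomised and given the sham operation, in which the abdomen was opened, vessels were tied and the stomach was handled but kept whole. After a recovery gel, the study diets began on day 7. Both had 20% of calories from fat, and carbohydrate took the place of protein, so that less protein and more carbohydrate cannot be told apart. Liver was collected 14 weeks after surgery, when the mice had fasted for 16 h and then eaten their diet again for 4 h. Mice lived in pairs, and the labels do not say which libraries came from cage mates. Sham mice on 21% protein (P21, n = 7) served to place the middle diet. Mice with sleeve gastrectomy (SG, the removal of about 75% of the stomach) on P36 (n = 4) or P7 (n = 7) had the same diets in other animals.

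Cells that lack an amino acid build up uncharged tRNA, which switches on the kinase GCN2. GCN2 phosphorylates the initiation factor eIF2alpha, so that most translation slows while the mRNA of the transcription factor ATF4 is translated better. This is the integrated stress response (ISR), and ATF4 with its partners binds C/EBP-ATF response elements (CARE) near genes for amino acid synthesis, import and tRNA charging and near the hormone gene Fgf21. The kinase PERK feeds the same route from the endoplasmic reticulum (ER), where IRE1 and ATF6 also raise chaperone genes when unfolded proteins collect. The liver is the main site of urea synthesis and of the breakdown of most amino acids, and its enzymes for both are known to follow protein intake.

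Levels are counts per 1000000 counts (CPM) on scaled library sizes, and differences are log2 fold changes of P7 minus P36 ± standard error from one fit over 56 libraries. Values with ± are these log2 fold changes unless stated, "fell by" gives the size of a negative one, and lists of 5 CPM values follow the order of the P36 library numbers. A gene is called when its adjusted p by edgeR's quasi-likelihood test with Benjamini-Hochberg adjustment over all 16087 genes tested was under 0.05. Total counts ran from 23.95 to 26.5 M in the P36 libraries and from 24.3 to 30.65 M in the P7 libraries. Hepatocyte genes were high in all 12 libraries, with Alb, the gene of serum albumin, at 51552 to 79295 CPM. The pancreas genes Cpa1 and Prss2 and the gut gene Cdx2 reached at most 0.165 CPM. Other members of those lists were higher, with Cela1 of the pancreas list at 4.85 to 12.0 CPM and Fabp2 of the gut list at 78.5 to 200.2 CPM. Of the fat cell list, Adipoq, Lep and Cfd reached 1.47, 1.36 and 15.6 CPM on P36. The 1.47 CPM of Adipoq was in P36 library 1, against at most 0.591 CPM in the other 11. P7 library 7 lay apart from the other P7 libraries, with a median correlation to its own group of 0.9642 against 0.9759 to 0.9845 for the other 11. It also had the highest summed level of cytosolic ribosomal protein genes, 23507 CPM against 15468 to 20124 in the other 11. P36 library 5 held 18.2 CPM of skeletal muscle genes in sum and P36 library 1 held 5.70 CPM, against at most 1.58 CPM in the others. P36 library 3 had the highest summed level of the neutrophil list, 42.2 CPM against at most 29.1 CPM in the other 11. That list includes the chemokine genes Cxcl2 and Cxcl1, the latter at up to 7.05 CPM on P36 and 21.7 CPM on P7. Of 6 tested skeletal muscle genes Atp2a1, Acta1, Tnnt3 and Mb were called lower on P7, with at most 3.31 CPM of any of the 4 in P36 library 5, and 0 were called without that library. Where a list had 3 or more calls in a direction and that number moved by over 1.5 times with 1 library left out, or without P36 libraries 1 and 5, the number is given with and without them.

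In all, 1204 genes were higher on P7 and 1318 were lower, which is 7.48% and 8.19% of the genes tested. The median log2 fold change over all genes was 0.03. Every P7 library lay above every P36 library for 598 genes (3.72%), and every P7 library lay below every P36 library for 605 (3.76%). Without P36 libraries 1 and 5 the calls fell to 1448, 674 higher and 774 lower. With 1 library left out at a time 762 to 1228 genes were higher and 1067 to 1719 lower, and the lowest number higher was that without P36 library 6, where 1290 were lower. The lists of genes used below were drawn up with earlier results of these data known, so their counts are descriptions, to be read against those shares. In whole liver tissue, fewer cells of a type and less RNA per cell cannot be told apart.

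Genes of the ISR were higher on P7. Of their 20 tested regulators and effectors 13 were called higher on P7 and 0 lower, with a median log2 fold change of 1.14. For 10 of the 20 the P7 libraries all lay above the P36 libraries. Trib3, a pseudokinase that ATF4 induces and that restrains ATF4 in turn, stood at 1.99, 3.50, 2.54, 2.65 and 2.68 CPM on P36 and 52.3 to 130.4 CPM (median 72.8) on P7. The lowest P7 library thus held many times the highest P36 library, and the log2 fold change was 5.0 ± 0.46 (adjusted p = 1.81e-11). Ddit3, the stress transcription factor CHOP, was at 8.37, 13.4, 13.4, 9.0 and 10.8 CPM on P36, against 39.9 to 108 CPM on P7 with a median of 68.5. These groups did not overlap either, at a log2 difference of 2.69 ± 0.28 (adjusted p = 1.05e-09). Nupr1, a small stress-induced chromatin protein, read 1.51, 2.69, 3.57, 2.16 and 1.77 CPM on P36 and 22.9 to 59.5 CPM (median 37.4) on P7. All 7 P7 libraries were far above the 5 P36 libraries, at a log2 difference of 4.08 ± 0.45 (adjusted p = 4.12e-09). Atf3, a factor of the ATF family that follows ATF4, measured 3.99, 3.12, 4.60, 2.60 and 3.55 CPM on P36, against 12.7 to 53.2 CPM on P7 with a median of 25.5. The groups were separate and differed by 3.14 ± 0.47 (adjusted p = 2.68e-06). Atf5, an ATF4 relative that is itself translated under eIF2alpha phosphorylation, rose from a median of 256 to 849 CPM, at a log2 difference of 1.75 ± 0.25. Gadd45a, a growth arrest gene, rose by 2.34 ± 0.35 (adjusted p = 2.16e-06) and Sesn2, which senses leucine and holds back mTORC1, rose by 1.45 ± 0.22 (adjusted p = 4.23e-06).

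Other members of the list rose or did not pass the test. Atf4 itself was at 136, 121, 130.3, 125 and 134 CPM on P36 and 105 to 214 CPM (median 150.4) on P7. P7 libraries lay both above and below all P36 libraries, and the mRNA of the factor was not called, at 0.30 ± 0.17 (adjusted p = 0.225). Cebpb, which pairs with ATF4, was not called at 0.59 ± 0.33 (adjusted p = 0.236), while Cebpg, another partner, rose by 0.94 ± 0.17 (adjusted p = 4.55e-05). Ddit4, an inhibitor of mTORC1, rose from a median of 6.35 to 23.6 CPM, at a log2 difference of 2.22 ± 0.42, and Sqstm1, the autophagy receptor p62, from a median of 362 to 808 CPM, at a log2 difference of 1.34 ± 0.17. Ppp1r15a, the phosphatase subunit GADD34 that ends the response, had 0.35 ± 0.19 (adjusted p = 0.228), and Herpud1, an ATF4 target that also belongs to ER quality control, 0.02 ± 0.24 (adjusted p = 0.979). Stc2, a secreted glycoprotein of stress, had 0.81 ± 0.43 (adjusted p = 0.214). Without P7 library 7 or without P36 libraries 1 and 5, 11 members were called higher.

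**Figure D1:**
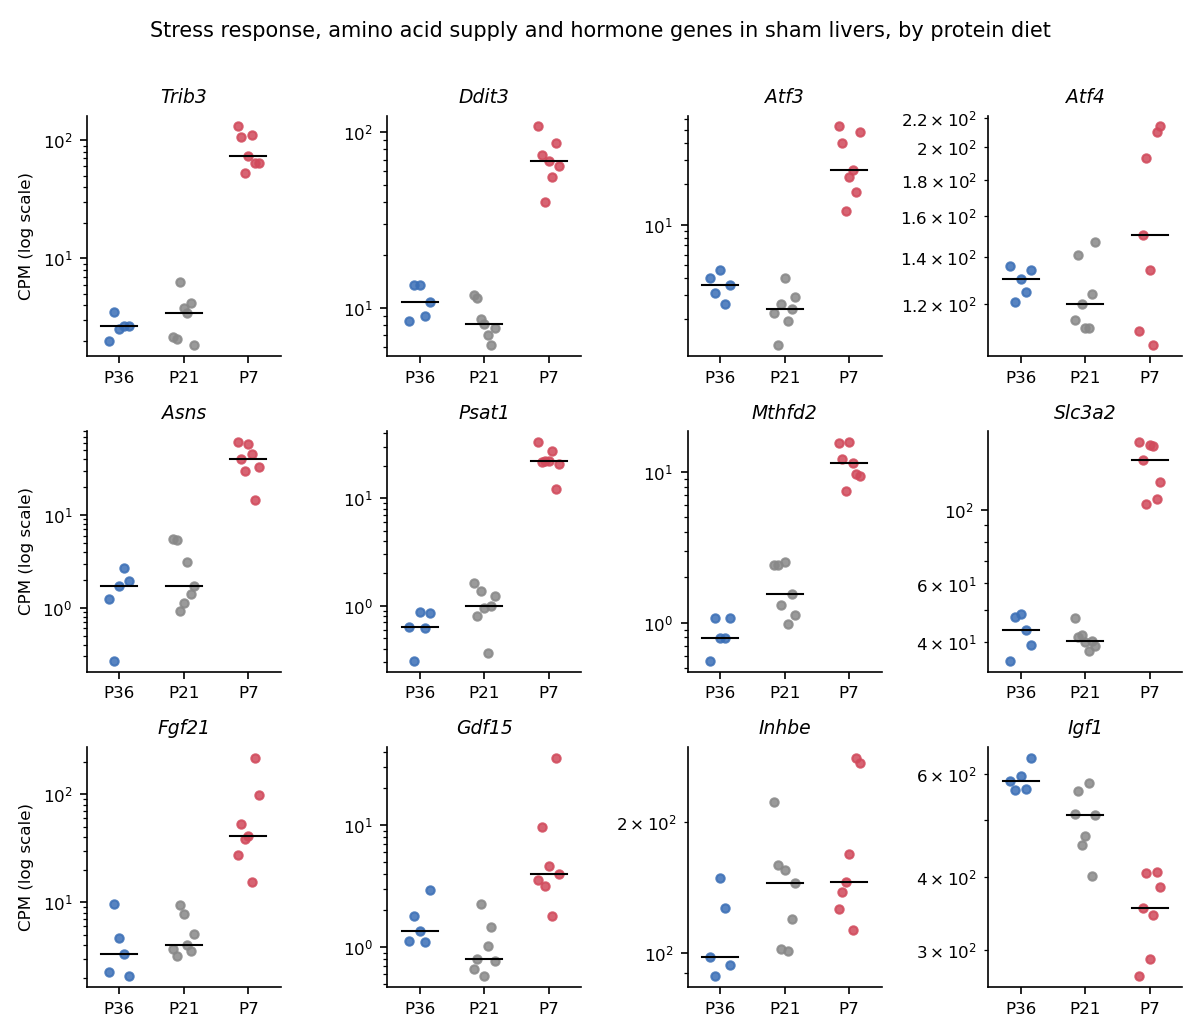
Levels in CPM on a log axis of 12 genes of the stress response, amino acid supply and liver hormones in sham livers on P36 (5 libraries), P21 (7) and P7 (7), one point per library, with black lines at the medians. Trib3, Ddit3, Atf3, Asns, Psat1, Mthfd2, Slc3a2 and Fgf21 were higher in every P7 library than in every P36 library, Igf1 was lower in every one, and Atf4, Gdf15 and Inhbe overlapped.

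The promoters of several of these genes hold the letters of a CARE. Shown whole are 3 that hold a match, from the 5 largest rises that the rule for naming genes gave. Of those 5, Nupr1 also held a match and is shown in part below, while Psat1, the largest rise, held none. The sequences are RefSeq's for build GRCm38.p6, from 250 bases before to 50 after the start, written 5′ to 3′ on the strand of the gene, with the match to TGATGNAA on either strand in capitals. Trib3 lies at chr2:152344011-152344310, minus strand, Asns at chr6:7693160-7693459, minus strand and Fgf21 at chr7:45615441-45615740, minus strand.
Trib3: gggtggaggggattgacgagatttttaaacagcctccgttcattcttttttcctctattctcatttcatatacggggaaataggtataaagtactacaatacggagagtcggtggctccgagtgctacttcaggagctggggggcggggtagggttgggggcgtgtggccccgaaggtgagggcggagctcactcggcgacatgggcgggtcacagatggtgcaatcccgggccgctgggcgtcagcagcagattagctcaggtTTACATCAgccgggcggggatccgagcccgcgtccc
Asns: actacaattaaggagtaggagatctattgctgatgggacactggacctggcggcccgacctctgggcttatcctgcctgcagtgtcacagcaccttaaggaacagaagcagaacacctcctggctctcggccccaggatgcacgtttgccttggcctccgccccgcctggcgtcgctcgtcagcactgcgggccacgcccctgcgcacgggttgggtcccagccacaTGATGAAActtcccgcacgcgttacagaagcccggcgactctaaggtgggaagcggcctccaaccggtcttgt
Fgf21: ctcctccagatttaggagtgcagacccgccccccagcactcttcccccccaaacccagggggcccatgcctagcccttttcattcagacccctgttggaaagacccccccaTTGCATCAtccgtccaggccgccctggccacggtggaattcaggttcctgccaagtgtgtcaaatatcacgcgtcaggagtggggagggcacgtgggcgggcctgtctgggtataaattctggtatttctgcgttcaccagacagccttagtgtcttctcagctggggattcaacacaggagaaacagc
Of 32851 promoters in the table, 3.97% held the motif. The lists below count genes, and of 11715 tested genes with a promoter 2.93% held it. Among the 19 members of the ISR list with an entry it was present in 5, namely Atf3, Chac1, Nupr1, Herpud1 and Trib3. It was present in 5 of 13 cytosolic tRNA synthetases with an entry (Tars1, Yars1, Gars1, Aars1 and Iars1) and in 3 of 15 amino acid synthesis enzymes (Pycr1, Got1 and Asns). Got1 fell and Aars1, Tars1 and Herpud1 were not called, so a match did not go with a rise in every gene. Psat1, Ddit3 and Atf5 had an entry and rose without a match. The following windows of 12 bases either side of the first match are those of 4 genes called higher in which it lies on the strand opposite to the gene, as in Trib3 and Fgf21, while the match of Asns lies on the strand of the gene.
Nupr1: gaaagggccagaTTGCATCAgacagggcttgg
Atf3: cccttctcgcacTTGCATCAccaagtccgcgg
Chac1: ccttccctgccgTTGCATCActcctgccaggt
Gars1: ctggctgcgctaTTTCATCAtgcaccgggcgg
The windows were those of Nupr1 (chr7:126625561-126625592, minus strand), Atf3 (chr1:191183424-191183455, minus strand), Chac1 (chr2:119351037-119351068, plus strand) and Gars1 (chr6:55037959-55037990, plus strand). A match is a run of letters and not a measured binding site. Leaving out 1 library in turn ended the call of Chac1 in 4 of the 12 fits (adjusted p up to 0.0865).

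Hormones that the liver sends out moved in both directions, with 5 of 20 called higher and 2 lower. Fgf21, a hormone that is known to rise on low protein and to change food preference and energy use, was at 2.27, 9.58, 4.67, 3.35 and 2.06 CPM on P36 and 15.6 to 218 CPM (median 41.3) on P7. No P7 library fell to the level of a P36 library, although the P7 libraries differed widely among themselves, and the log2 fold change was 4.00 ± 0.69 (adjusted p = 3.07e-05). P7 library 7 held the highest value, and without it the log2 fold change was 3.38 (adjusted p = 0.000128). Gdf15, a stress hormone that acts on the hindbrain to curb appetite, read 1.12, 1.81, 1.35, 1.10 and 2.93 CPM on P36, against 1.80 to 35.7 CPM on P7 with a median of 3.99. Its groups overlapped, P7 library 7 was again the highest, and the log2 fold change of 2.42 ± 0.58 (adjusted p = 0.00221) became 1.42 (adjusted p = 0.037) without it. Igfbp1, a binding protein of insulin-like growth factors that ATF4 and fasting raise, went from a median of 3.88 to 52.6 CPM, at a log2 difference of 3.29 ± 0.78. Inhba, which encodes a subunit of activin A, rose by 1.59 ± 0.28 (adjusted p = 3.79e-05). Inhbe, the activin E subunit made in hepatocytes, was at 97.8, 88.4, 149, 127 and 93.9 CPM on P36 and 113 to 281 CPM (median 146) on P7. The groups overlapped and the call, at 0.68 ± 0.24 (adjusted p = 0.0454), was lost in 8 of the 12 fits that each left out 1 library (adjusted p up to 0.152). Igf1, the growth factor that carries much of the action of growth hormone, was at 584, 563, 595, 566 and 639 CPM on P36, against 270.5 to 408 CPM on P7 with a median of 354. All P7 libraries were lower than all P36 libraries, at a log2 difference of -0.75 ± 0.16 (adjusted p = 0.000485). Angptl4, an inhibitor of lipoprotein lipase, and Ahsg, fetuin A, were not called, at 0.84 ± 0.42 and 0.54 ± 0.21.

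Enzymes that make amino acids rose as a subset. Of 19 members 6 were called higher and 2 lower, with a median of 0.27. Psat1, the transaminase of serine synthesis, was at 0.638, 0.308, 0.872, 0.617 and 0.866 CPM on P36 and 12.3 to 33.2 CPM (median 22.1) on P7. It was the largest rise by the rule used for naming genes, 5.10 ± 0.55 (adjusted p = 1.75e-09), and no P7 library came near a P36 library. Asns, which makes asparagine, was at 1.24, 0.269, 1.70, 2.69 and 1.94 CPM on P36, against 14.5 to 61.0 CPM on P7 with a median of 40.4. The highest P36 library stayed below the lowest P7 library, and the log2 fold change was 4.69 ± 0.70 (adjusted p = 2.78e-06). Mthfd2, a mitochondrial enzyme that feeds one-carbon units from serine, rose from a median of 0.794 to 11.5 CPM, at a log2 difference of 3.76 ± 0.44. Aldh18a1 and Pycr1, the entry and exit enzymes of proline synthesis, rose by 2.42 ± 0.39 (adjusted p = 1.18e-05) and 2.38 ± 0.46 (adjusted p = 0.000173). Phgdh, the first enzyme of serine synthesis, was not called, at 1.19 ± 0.67 (adjusted p = 0.24), and Psph, the last one, had 0.41 ± 0.15 (adjusted p = 0.0559). Shmt2, which splits serine into glycine in mitochondria, had -0.33 ± 0.16 (adjusted p = 0.161). Got1, the cytosolic aspartate transaminase, fell by 1.09 ± 0.25 (adjusted p = 0.00133).

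Carriers of amino acids moved in both directions. Of 26 transporters, 8 were called higher and 4 lower, and without P36 libraries 1 and 5 these counts were 3 and 1. The number higher was 4 without P36 library 1, P36 library 6, P7 library 2 or P7 library 5 and 5 without P36 library 2, P36 library 5 or P7 library 3. Slc3a2, the heavy chain CD98 shared by several exchangers, was at 35.1, 47.4, 48.7, 43.5 and 39.3 CPM on P36 and 104 to 159.8 CPM (median 141) on P7. Its groups lay well apart, at a log2 difference of 1.66 ± 0.16 (adjusted p = 3.27e-11). Slc7a7, a light chain that pairs with CD98 and exports cationic amino acids, rose from a median of 2.23 to 9.24 CPM, at a log2 difference of 2.00 ± 0.36, and Slc7a1, the importer of arginine and lysine, from a median of 1.12 to 4.12 CPM, at a log2 difference of 2.04 ± 0.39. Slc7a5, the light chain LAT1 for large neutral amino acids, had 0.92 ± 0.26 (adjusted p = 0.0111). Slc7a11, the cystine importer, stayed under 2 CPM in every library, at 0.0399, 0.077, 0.158, 0.0441 and 0.0825 CPM on P36 and 0.107 to 1.38 CPM (median 0.489) on P7. The groups overlapped, and the call at 2.70 ± 0.88 (adjusted p = 0.0274) was lost in 5 of the 12 fits that each left out 1 library (adjusted p up to 0.0736). Slc7a2, the low-affinity cationic carrier of hepatocytes, went the other way, from a median of 253 to 149 CPM, at a log2 difference of -0.75 ± 0.17 (adjusted p = 0.00127). Slc43a1, the facilitative carrier LAT3, fell by 1.40 ± 0.39 (adjusted p = 0.00988). Slc38a2, the SNAT2 carrier that amino acid shortage is known to raise in cultured cells, and Slc38a3, the glutamine carrier of periportal hepatocytes, were not called, at 0.21 ± 0.21 and -0.21 ± 0.16. When each library was left out once, the call was lost for Slc7a5 without P36 library 6 or P7 library 5 (adjusted p up to 0.0543).

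Cytosolic tRNA synthetases, which load amino acids on tRNA, moved by small amounts. Of 20, 7 were called higher and 2 lower, with a median of 0.17. Gars1, for glycine, was at 43.7, 40.9, 45.7, 47.9 and 56.7 CPM on P36 and 63.8 to 90.5 CPM (median 81.3) on P7. Its groups were separate although the log2 fold change was only 0.77 ± 0.11 (adjusted p = 1.05e-06). Sars1, for serine, and Cars1, for cysteine, also had groups that did not overlap, with 0.75 ± 0.11 (adjusted p = 3.86e-06) and 0.78 ± 0.14 (adjusted p = 4.05e-05). Yars1, for tyrosine, rose by 0.56 ± 0.10 (adjusted p = 9.39e-05) and Eprs1, for glutamate and proline, rose by 0.57 ± 0.13 (adjusted p = 0.00186). Wars1, for tryptophan, which interferon also induces, fell by 0.46 ± 0.12 (adjusted p = 0.00568). Aars1, for alanine, was not called, at 0.18 ± 0.17 (adjusted p = 0.53). The mitochondrial synthetases gave 0 calls higher and 1 lower of 17.

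Of the 16 kinases and sensors upstream 1 was called higher and 4 lower, with a median of -0.20. Eif2ak4, which encodes GCN2, was at 7.01, 6.70, 7.45, 6.70 and 8.21 CPM on P36 and 5.66 to 7.87 CPM (median 7.18) on P7. The groups covered the same range, with -0.05 ± 0.15 (adjusted p = 0.873). Eif2ak3, which encodes PERK, fell from a median of 14.3 to 8.52 CPM, at a log2 difference of -0.83 ± 0.17 (adjusted p = 0.000396), and Castor2, a relative of the arginine sensor CASTOR1, from a median of 7.72 to 2.55 CPM, at a log2 difference of -1.55 ± 0.17 (adjusted p = 4.95e-09). Both had groups that did not overlap. Sesn3, a sestrin, fell by 0.79 ± 0.20 (adjusted p = 0.0035), unlike Sesn2.

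**Figure D2:**
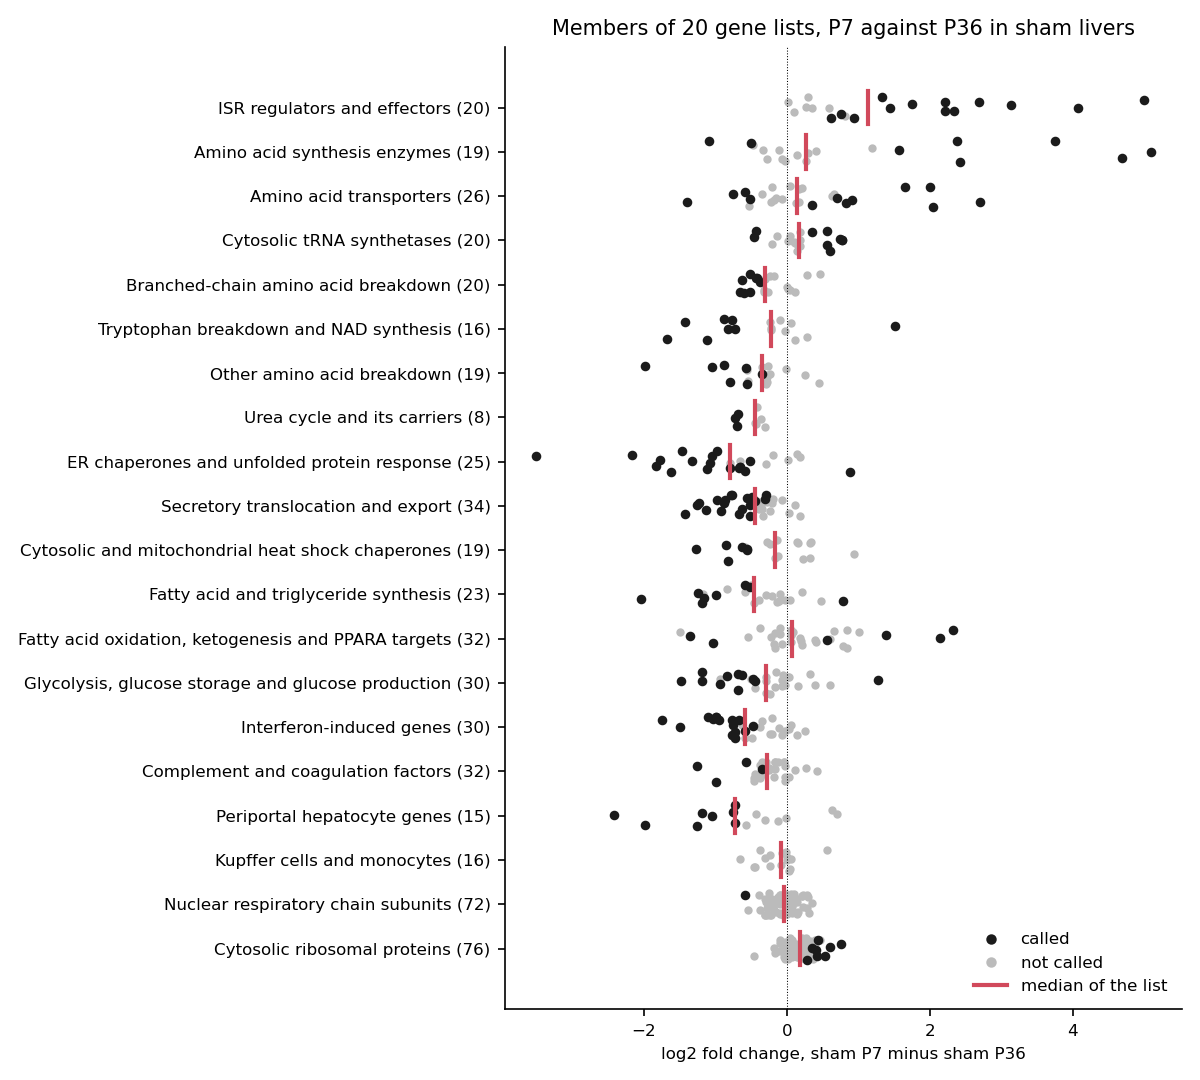
Log2 fold changes of P7 minus P36 in sham livers for every tested member of 20 gene lists, with the number tested in brackets after each name, black points for genes called and grey for genes not called, and a red bar at the median of the list (points are spread vertically for sight). The ISR list has its median at 1.14 and the list of ER chaperones at -0.79, while those of Kupffer cells and of the respiratory chain are close to 0.

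Genes of amino acid breakdown were lower or not called, with few exceptions. Of 20 genes for the branched-chain amino acids 8 were called lower and 0 higher, and 3 were lower without P36 libraries 1 and 5. That number was 5 without P36 library 1 and 4 without P36 library 6. Ivd, which oxidises the product of leucine, was at 201, 167, 170.3, 171 and 266 CPM on P36 and 116 to 160.5 CPM (median 123) on P7. All P7 libraries were below all P36 libraries, at a log2 difference of -0.62 ± 0.12 (adjusted p = 0.000301). Bckdha, a subunit of the branched-chain dehydrogenase, and Bckdk, the kinase that turns it off, were not called, at -0.26 ± 0.20 and -0.18 ± 0.10. Of 12 genes for aromatic amino acids and histidine 4 were lower and 1 was higher, with 2 lower without P36 library 1. Hal, which begins histidine breakdown, was at 272, 288, 362, 379 and 470.1 CPM on P36, against 84.1 to 226 CPM on P7 with a median of 133. The groups were separate, at a log2 difference of -1.25 ± 0.23 (adjusted p = 8.72e-05). Uroc1, the next enzyme, fell by 0.68 ± 0.15 (adjusted p = 0.000694). Tat, tyrosine aminotransferase, ran against the rest at 1346, 1048, 1446, 1079 and 1350.5 CPM on P36 and 1977 to 2762 CPM (median 2106) on P7. Here every P7 library was above every P36 library, at a log2 difference of 0.87 ± 0.21 (adjusted p = 0.0025).

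Genes of the route from tryptophan to NAD and of the breakdown of the remaining amino acids also fell. Of 16 genes of the first 7 were lower and 1 higher. Acmsd, which diverts the pathway away from NAD, was at 13, 23.2, 27.7, 20.0 and 26.2 CPM on P36 and 3.90 to 9.91 CPM (median 6.85) on P7. Its groups did not overlap, at a log2 difference of -1.67 ± 0.30 (adjusted p = 4.52e-05). Nnmt, which methylates nicotinamide, fell from a median of 104 to 36.3 CPM, at a log2 difference of -1.43 ± 0.35, and Nampt, which salvages nicotinamide, from a median of 105 to 58.7 CPM, at a log2 difference of -0.88 ± 0.17. Kyat1 and Kyat3, 2 transaminases that act on kynurenine and related substrates, moved in opposite directions, at 1.51 ± 0.24 (adjusted p = 8.49e-06) and -1.11 ± 0.20 (adjusted p = 4.52e-05). Tdo2, the first enzyme of the route, was not called at -0.22 ± 0.21 (adjusted p = 0.53). Sds, serine dehydratase, was at 101, 41.6, 62.3, 44.5 and 119 CPM on P36, against 5.46 to 70.0 CPM on P7 with a median of 11.4. The single high P7 value was that of library 7, and the log2 fold change of -1.98 ± 0.43 (adjusted p = 0.000707) became -2.87 (adjusted p = 1.98e-07) without it. Gls2, liver glutaminase, fell by 1.05 ± 0.19 (adjusted p = 4.82e-05), Aldh4a1, of proline breakdown, fell by 0.80 ± 0.14 (adjusted p = 5.12e-05), and Gldc, of glycine cleavage, fell by 0.88 ± 0.22 (adjusted p = 0.00292). In the list of other breakdown enzymes 7 of 19 were lower and 0 higher.

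All 8 genes of the urea cycle and its carriers had lower estimates on P7, and 3 of them were called, or 5 without P36 library 2. Slc25a13, the aspartate-glutamate carrier citrin, was at 243, 209, 189, 212 and 246 CPM on P36 and 96.7 to 157 CPM (median 139.8) on P7. Its groups were separate, at a log2 difference of -0.68 ± 0.17 (adjusted p = 0.00277). Slc25a15, the ornithine carrier, fell by 0.69 ± 0.16 (adjusted p = 0.00211). Cps1, the entry enzyme, was at 2796, 1771, 1977, 2569 and 3793 CPM on P36, against 788 to 2366 CPM on P7 with a median of 1554. The groups overlapped, and the call at -0.73 ± 0.26 (adjusted p = 0.0438) was lost in 7 of the 12 fits that each left out 1 library (adjusted p up to 0.153). Otc, Ass1, Asl and Arg1, the other enzymes of the cycle, had -0.42 ± 0.17, -0.43 ± 0.18, -0.45 ± 0.20 and -0.30 ± 0.15 and were not called.

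Of 26 genes of methionine, cysteine and one-carbon metabolism 4 were lower and 1 was higher. Gnmt, which disposes of excess methyl groups, was at 929.6, 621, 959, 793 and 1426 CPM on P36 and 245 to 689 CPM (median 397) on P7. The highest P7 library passed the lowest P36 library, and the log2 fold change was -1.15 ± 0.25 (adjusted p = 0.000728). Sqor, which oxidises hydrogen sulfide, fell by 0.64 ± 0.12 (adjusted p = 0.000116) and Sardh, which clears sarcosine, fell by 0.74 ± 0.21 (adjusted p = 0.00968). Bhmt, which remethylates homocysteine with betaine, had 0.79 ± 0.30 (adjusted p = 0.0656), and Cth, which makes cysteine and is an ATF4 target in other cells, 0.30 ± 0.18 (adjusted p = 0.254).

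Haem synthesis changed at its first step. Alas1, the rate-limiting enzyme, was at 2358, 1271, 2576, 2672 and 1547 CPM on P36 and 102 to 409.6 CPM (median 204) on P7. Every P7 library lay far below every P36 library, at a log2 difference of -3.26 ± 0.38 (adjusted p = 1.08e-08). Fech, the last enzyme, fell by 0.43 ± 0.13 (adjusted p = 0.0195), and the 7 others of 9, Alad among them, were not called. Hmox2, the constitutive haem oxygenase, rose by 0.65 ± 0.14 (adjusted p = 0.000632), while Hmox1, the inducible one, did not pass at 0.16 ± 0.52 (adjusted p = 0.879). Hmox1 was at 10.4 to 19.1 CPM on P36 and 12.7 to 21.1 CPM on P7. Its standard error also takes in the spread of the other groups fitted, among them an SG P36 library at 1093 CPM. Ftl1, the light chain of ferritin, fell by 0.67 ± 0.17 (adjusted p = 0.00478) and Trf, transferrin, fell by 0.49 ± 0.17 (adjusted p = 0.0366). Hamp, hepcidin, had 0.43 ± 0.53 (adjusted p = 0.653), whereas its close relative Hamp2 was at 38.3, 55.7, 46.9, 13.8 and 117 CPM on P36, against 2.82 to 8.44 CPM on P7 with a median of 3.6. The Hamp2 groups did not overlap, at a log2 difference of -3.47 ± 0.64 (adjusted p = 9.11e-05), but reads of such near copies can be split wrongly between them. Of 6 metallothionein and zinc carrier genes edgeR called 0, with 0 at an unadjusted p under 0.05, 0 by DESeq2 and 0 by limma-voom, and Mt1 had -1.24 ± 1.04 (adjusted p = 0.466). With 1 library left out at a time the test no longer called Trf in 5 of the 12 fits (adjusted p up to 0.0797).

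ER chaperones and their folding enzymes were lower on P7, in contrast to the ISR genes. Of 25 genes 17 were called lower and 1 higher, with a median of -0.79. Hspa5, the master chaperone BiP, was at 1204, 2641, 1260.2, 1304 and 1589 CPM on P36 and 391 to 1066 CPM (median 662) on P7. The groups did not overlap, and the log2 fold change was -1.12 ± 0.30 (adjusted p = 0.00714). Manf, a small secreted ER protein that helps BiP, was at 145, 249.6, 152, 161 and 202 CPM on P36, against 38.2 to 70.2 CPM on P7 with a median of 45.8. The difference of -1.83 ± 0.35 (adjusted p = 0.000125) again left no overlap. Derl3, a part of the channel that takes misfolded proteins out of the ER, was at 2.91, 33.6, 5.82, 28.8 and 10.4 CPM on P36 and 0.826 to 2.59 CPM (median 1.39) on P7. The P36 libraries spread over more than 10-fold here, and the P7 libraries were all below them, at a log2 difference of -3.51 ± 0.76 (adjusted p = 0.000794). Hyou1, a chaperone of the Hsp70 family, fell from a median of 446 to 119 CPM, Pdia6, a disulfide isomerase, from a median of 327 to 143 CPM, and Dnajb9, a BiP cochaperone, from a median of 65.1 to 26.0 CPM. Sdf2l1, which works with BiP and its cochaperones, fell by 2.17 ± 0.47 (adjusted p = 0.000727) and Edem1, which marks misfolded glycoproteins, fell by 0.97 ± 0.16 (adjusted p = 1.63e-05). Ern1, the sensor IRE1 itself, was the exception and rose by 0.88 ± 0.21 (adjusted p = 0.0017). Xbp1, whose mRNA IRE1 splices, and Atf6, the third sensor's gene, were not called, at -0.19 ± 0.19 and 0.18 ± 0.16. Leaving out 1 library at a time gave 12 to 17 members called lower.

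The promoter of Hspa5 (chr2:34771840-34772139, plus strand) carries an ER stress response element (ERSE), searched as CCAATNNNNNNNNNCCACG on both strands and given in capitals, and it is shown because the same letters recur in much of this list.
Hspa5: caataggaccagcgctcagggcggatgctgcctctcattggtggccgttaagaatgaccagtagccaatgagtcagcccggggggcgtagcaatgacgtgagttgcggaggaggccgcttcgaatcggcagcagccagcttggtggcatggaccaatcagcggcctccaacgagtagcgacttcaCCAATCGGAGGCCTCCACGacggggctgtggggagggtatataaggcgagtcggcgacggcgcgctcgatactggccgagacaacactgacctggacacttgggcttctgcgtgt
Over all promoters 0.119% held the element, and over tested genes with a promoter 0.179% did. Of 21 members of the ER list with an entry 9 held it, namely Calr, Derl3, Hsp90b1, Canx, Pdia6, Dnajc3, Creld2, Syvn1 and Hspa5. None of 27 genes of secretory export with an entry held it, nor did any of the 19 ISR genes. In Derl3 (chr10:75893230-75893272, plus strand), Creld2 (chr15:88819508-88819550, plus strand) and Calr (chr8:84847063-84847105, minus strand) the element runs on the other strand.
Derl3: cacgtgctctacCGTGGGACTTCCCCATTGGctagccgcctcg
Creld2: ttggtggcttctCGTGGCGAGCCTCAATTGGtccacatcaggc
Calr: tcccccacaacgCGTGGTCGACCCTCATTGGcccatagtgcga
Creld2 fell by 1.62 ± 0.44 (adjusted p = 0.00771), and Calr, the lectin chaperone calreticulin, was not called at -0.65 ± 0.27 (adjusted p = 0.0929).

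Genes that carry new proteins into and out of the ER fell as well. Of 34, 19 were lower and 0 higher, and for 16 the groups did not overlap. Sec61a1, the pore through which secreted proteins pass, was at 185, 257, 199, 227 and 297 CPM on P36 and 65.2 to 135 CPM (median 97.3) on P7. All P7 libraries were lower, at a log2 difference of -1.23 ± 0.19 (adjusted p = 4.73e-06). Sec24d and Sec23b, coat proteins of the vesicles that leave the ER, were lower, at -1.43 ± 0.23 (adjusted p = 9.83e-06) and -1.26 ± 0.21 (adjusted p = 1.96e-05). Lman1, a cargo receptor for clotting factors, fell by 0.97 ± 0.15 (adjusted p = 8.17e-06), Spcs3, of the signal peptidase, fell by 1.13 ± 0.18 (adjusted p = 8.53e-06), and Ssr1, of the translocon, fell by 0.86 ± 0.14 (adjusted p = 1.68e-05). Creb3l3, a liver transcription factor of the ER membrane, was not called at -0.37 ± 0.15 (adjusted p = 0.0904). Cytosolic chaperones gave 6 lower and 0 higher of 19. The number lower was 3 without P36 library 1 and 2 without libraries 1 and 5. Hspa8, the constitutive Hsp70, was at 3501, 3475, 3916, 2709 and 3204 CPM on P36, against 1674 to 2008 CPM on P7 with a median of 1931. Its groups were separate, at a log2 difference of -0.85 ± 0.19 (adjusted p = 0.000889). Hsph1, which recharges Hsp70, fell by 0.82 ± 0.26 (adjusted p = 0.022), and Hsf1, the factor of the heat shock response, and Hspd1, the mitochondrial chaperonin, were not called, at 0.32 ± 0.15 and 0.16 ± 0.17.

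**Figure D3:**
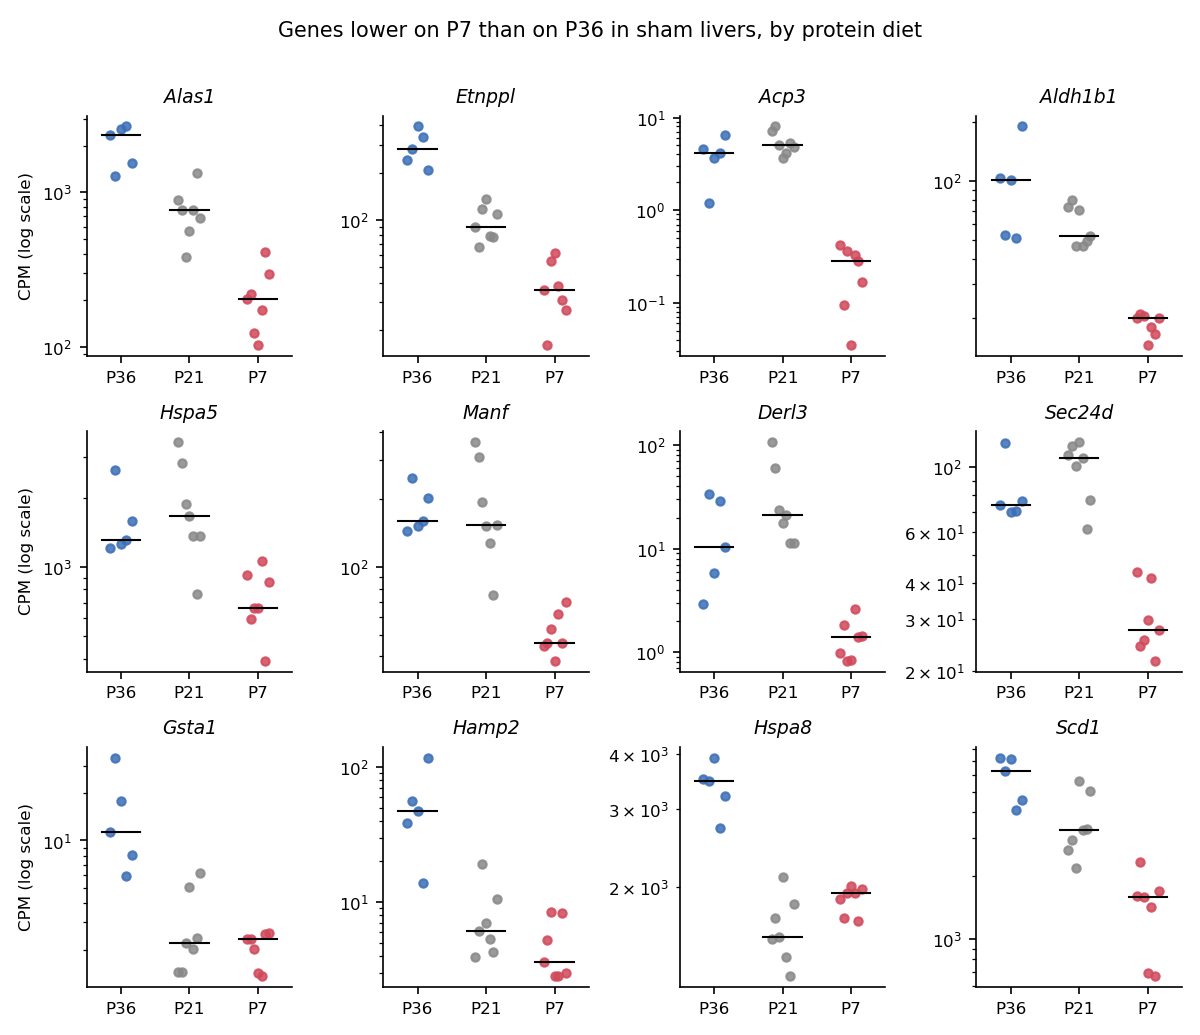
Levels in CPM on a log axis of 12 genes called lower on P7 than on P36 in sham livers on P36 (5 libraries), P21 (7) and P7 (7), one point per library, with black lines at the medians. In all 12 the P7 libraries lie below the P36 libraries. The P21 libraries lie near P36 for Hspa5, between both for Alas1 and Etnppl and near P7 for Gsta1, Hamp2 and Hspa8. For Derl3 P21 overlaps P36, with a higher median of 21.3 CPM against 10.4 CPM.

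Fat synthesis was lower on P7 at 7 of 23 genes and higher at 1. Without P36 library 1 4 were lower, and without P36 libraries 1 and 5 3 were lower and 0 higher. Scd1, the desaturase that makes oleate, was at 7251, 6246, 7153, 4085 and 4548 CPM on P36 and 663 to 2325 CPM (median 1573) on P7. No P7 library reached a P36 library, and the log2 fold change was -2.04 ± 0.36 (adjusted p = 3.69e-05). Srebf1, the factor that insulin uses to drive these genes, was at 237, 117, 238, 201 and 276 CPM on P36, against 45.4 to 205 CPM on P7 with a median of 70.0. P7 libraries 3 and 7 stood inside the P36 range, and -1.18 ± 0.28 (adjusted p = 0.00234) became -1.5 (adjusted p = 7.06e-05) without library 7. Acly, which makes cytosolic acetyl-CoA, fell by 1.24 ± 0.35 (adjusted p = 0.00895), Fads1, a desaturase of polyunsaturated fat, fell by 0.59 ± 0.14 (adjusted p = 0.0015), and Dgat2, which closes triglycerides, fell by 0.52 ± 0.15 (adjusted p = 0.0107). Mlxipl, the carbohydrate sensor ChREBP, rose by 0.79 ± 0.25 (adjusted p = 0.0245), while Pklr and Thrsp, both known to answer to it, were not called, at -0.29 ± 0.26 and -1.17 ± 0.52. Acaca, the acetyl-CoA carboxylase of fat synthesis, had -0.14 ± 0.20 (adjusted p = 0.695). Leaving out 1 library in turn ended the call of Dgat2 without P36 library 1 (adjusted p = 0.0519) and Mlxipl in 4 of the 12 fits (adjusted p up to 0.0968).

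Fat burning moved at few genes. Of 32, 4 were higher and 2 lower. Cyp4a31, a fatty acid hydroxylase of a family of near copies that share reads, was at 18.4, 20.9, 37.0, 30.9 and 12.6 CPM on P36 and 73.5 to 171 CPM (median 126) on P7. The groups were separate, at a log2 difference of 2.33 ± 0.32 (adjusted p = 5.43e-07). Acot2, a mitochondrial acyl-CoA thioesterase, rose from a median of 8.47 to 39.3 CPM, at a log2 difference of 2.15 ± 0.47. Ppargc1a, the coactivator PGC-1alpha, was at 8.41, 7.43, 5.51, 7.67 and 8.0 CPM on P36, against 1.96 to 4.12 CPM on P7 with a median of 3.0. It was lower in every P7 library, at a log2 difference of -1.36 ± 0.20 (adjusted p = 2.01e-06), and Ppara, the nuclear receptor of fasting, fell by 1.03 ± 0.36 (adjusted p = 0.0403). Among 18 lipid droplet genes Plin3 and Fitm2 fell, at -1.07 ± 0.16 (adjusted p = 2.01e-06) and -0.74 ± 0.22 (adjusted p = 0.0146), and Plin2, the chief coat protein of liver droplets, was not called at -0.17 ± 0.22 (adjusted p = 0.668). In cholesterol synthesis and uptake 1 of 25 was lower. When each library was left out once, the call was lost for Fitm2 without P36 library 1 (adjusted p = 0.053) and Ppara in 7 of the 12 fits (adjusted p up to 0.102).

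Bile acid genes gave 2 calls lower and 1 higher of 23. Cyp7a1, the rate-limiting enzyme, was at 452, 101, 193, 389 and 278 CPM on P36 and 94.0 to 253 CPM (median 178) on P7. The groups overlapped over most of their range, with -0.55 ± 0.43 (adjusted p = 0.427). Akr1d1, the reductase of the steroid ring, fell from a median of 210.2 to 93.0 CPM, at a log2 difference of -1.23 ± 0.23, and Slc27a5, which activates bile acids for conjugation, from a median of 737 to 469 CPM, at a log2 difference of -0.63 ± 0.14. Neither had groups that overlapped. Apoa5, which promotes the clearance of triglycerides from blood, fell by 1.16 ± 0.22 (adjusted p = 0.000116), and Apoa1, the main protein of high-density lipoprotein, rose by 0.74 ± 0.23 (adjusted p = 0.022). Apob and Mttp, needed for very-low-density lipoprotein, were not called, at -0.29 ± 0.15 and -0.07 ± 0.14. With 1 library left out at a time the test no longer called Apoa1 in 3 of the 12 fits (adjusted p up to 0.0985).

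Glucose metabolism was lower at 10 of 30 genes and higher at 1. The number lower was 6 without P36 library 1 and 6 without P36 libraries 1 and 5. G6pc1, which frees glucose from its phosphate, was at 156, 254, 267, 146 and 106 CPM on P36 and 25.8 to 94.7 CPM (median 64.4) on P7. The groups did not overlap, and the log2 fold change was -1.48 ± 0.46 (adjusted p = 0.0205). Slc37a4, the carrier that brings glucose 6-phosphate to it, fell by 0.84 ± 0.14 (adjusted p = 1.63e-05). Pck1, the cytosolic enzyme of glucose production, was at 958, 3001, 1770.1, 1101 and 668 CPM on P36, against 423 to 928 CPM on P7 with a median of 646. P36 library 2 held the highest value, and the call at -1.18 ± 0.34 (adjusted p = 0.0127) was lost without it (adjusted p = 0.122). Pck2, its mitochondrial counterpart and an ATF4 target, was the one gene of the list that rose, from a median of 4.15 to 10.7 CPM, at a log2 difference of 1.28 ± 0.23 (adjusted p = 6.72e-05). Pdk1, which turns off pyruvate dehydrogenase, fell by 0.94 ± 0.18 (adjusted p = 0.000127), Pfkl, of glycolysis, fell by 0.68 ± 0.18 (adjusted p = 0.0048), and Pygl, glycogen phosphorylase, fell by 0.63 ± 0.17 (adjusted p = 0.00601). Leaving out 1 library in turn ended the call of G6pc1 without P36 library 3 (adjusted p = 0.0593).

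Among 22 genes of insulin and growth hormone signalling 3 rose and 4 fell. Lepr, the leptin receptor, was at 1.79, 2.16, 1.90, 1.46 and 2.60 CPM on P36 and 7.26 to 42.9 CPM (median 12.9) on P7. It was higher in every P7 library, at a log2 difference of 3.46 ± 0.48 (adjusted p = 6.14e-07). Ghr, the growth hormone receptor, was at 524, 486, 391, 483 and 503 CPM on P36, against 244 to 349 CPM on P7 with a median of 312. Like Igf1 it was lower in every P7 library, at a log2 difference of -0.66 ± 0.15 (adjusted p = 0.00179). Igfbp2, another binding protein, rose by 1.12 ± 0.36 (adjusted p = 0.0251), and Akt2, the kinase of insulin action in liver, fell by 0.43 ± 0.12 (adjusted p = 0.00899). Insr, the insulin receptor, and Irs2, its docking protein, were not called, at -0.08 ± 0.12 and -0.10 ± 0.31. Growth hormone pulses also set the sex bias of liver genes. Of 20 male-predominant genes 1 rose and 1 fell, and of 16 female-predominant genes 1 rose and 3 fell, or 1 without P36 libraries 1 and 5. Elovl3, a male-predominant elongase, rose from a median of 24.5 to 136 CPM, at a log2 difference of 2.07 ± 0.49 (adjusted p = 0.00189). When each library was left out once, the call was lost for Igfbp2 in 3 of the 12 fits (adjusted p up to 0.114).

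Clock genes moved both ways, 3 higher and 4 lower of 19, with 2 lower without P36 libraries 1 and 5. Nr1d1, the repressor REV-ERBalpha, was at 37.6, 81.5, 57.6, 78.5 and 43.0 CPM on P36 and 89.4 to 154 CPM (median 113) on P7. All P7 libraries were above all P36 libraries, at a log2 difference of 0.93 ± 0.22 (adjusted p = 0.00214). Cry1, a core repressor of the clock, fell from a median of 13.4 to 5.0 CPM, at a log2 difference of -1.35 ± 0.22 (adjusted p = 1.52e-05). It was lower in every P7 library. Dbp, an output gene, read 83.8, 83.6, 60.2, 72.1 and 83.8 CPM on P36, against 43.4 to 262 CPM on P7 with a median of 93.9. P7 library 7 held the top value and the gene was not called, at 0.54 ± 0.31 (adjusted p = 0.244), and neither was Bmal1, at 0.60 ± 0.35 (adjusted p = 0.255). The labels do not give the clock time of collection for each mouse, so its part in these values was not tested.

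Of 35 drug-metabolising P450s and their receptors 1 rose and 3 fell. Cyp2a5, which oxidises coumarin, fell from a median of 1152 to 352 CPM, at a log2 difference of -1.60 ± 0.45 (adjusted p = 0.00895), and Cyp3a11, the main CYP3A enzyme of mouse liver, rose by 1.17 ± 0.37 (adjusted p = 0.0239). Cyp2e1 and Cyp1a2 were not called, at 0.01 ± 0.23 and -0.07 ± 0.37. Several glutathione transferases of the alpha class fell. Gsta1 was at 11.4, 33.8, 18, 5.95 and 8.09 CPM on P36 and 1.35 to 2.56 CPM (median 2.33) on P7. The P7 libraries were all lower, at a log2 difference of -2.89 ± 0.71 (adjusted p = 0.00308). Gsta13, with -3.20 ± 0.72 (adjusted p = 0.00116), and Gsta2, with -1.79 ± 0.52 (adjusted p = 0.012), are near copies of it, so that their shares of reads are uncertain, while Gsta3, with -0.86 ± 0.19 (adjusted p = 0.000973), is more distinct. Gstm4, of the mu class, rose by 0.56 ± 0.20 (adjusted p = 0.043). Nqo1 and Gclc, standard targets of the factor NRF2, were not called, at -0.10 ± 0.27 and 0.34 ± 0.20. The list held 2 higher and 5 lower of 31, with 3 lower without P36 library 2. With 1 library left out at a time the test no longer called Gsta2 without P36 library 2 (adjusted p = 0.0836), Cyp3a11 in 3 of the 12 fits (adjusted p up to 0.0886) and Gstm4 in 11 of the 12 fits (adjusted p up to 0.108).

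Interferon-induced genes were lower on P7 at 15 of 30, with a median of -0.59, and 0 were higher. Oasl1, an antiviral protein of the OAS family, was at 36.9, 14.7, 23.0, 44.0 and 48.6 CPM on P36 and 8.28 to 13.1 CPM (median 8.61) on P7. The groups were separate, at a log2 difference of -1.75 ± 0.27 (adjusted p = 4.06e-06). Irf7, which amplifies interferon signals, was at 41.8, 32.3, 36.1, 51.5 and 39.2 CPM on P36, against 12.2 to 35.9 CPM on P7 with a median of 14.1. Only P7 library 7 lay within the P36 range, and -1.10 ± 0.21 (adjusted p = 0.00013) became -1.34 (adjusted p = 1.62e-06) without it. Ifit1, which binds foreign RNA, fell by 1.5 ± 0.31 (adjusted p = 0.000423), and Mx2, an antiviral GTPase, fell by 0.75 ± 0.18 (adjusted p = 0.00199). Isg15, a ubiquitin-like modifier, and Gbp2, a target of interferon gamma, were not called, at -0.59 ± 0.24 and 0.03 ± 0.31. The summed level of the list ran from 632 to 945 CPM in the P36 libraries and from 526 to 718 CPM in the P7 libraries. Only P7 library 7 passed the lowest P36 libraries, numbers 2 and 3. P36 libraries 1 and 5, which held the muscle transcripts, were among the 3 highest in sum. Without both 3 members were called lower, and the median of the list was -0.47.

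No marker of Kupffer cells and monocytes was called. Of 16 edgeR called 0, with 0 at an unadjusted p under 0.05, 0 by DESeq2 and 0 by limma-voom, and their summed level was 281 to 665 CPM on P36 and 169 to 518 CPM on P7. Clec4f, found in Kupffer cells alone, had 0.06 ± 0.30 (adjusted p = 0.932), and Timd4, of long-lived Kupffer cells, 0.04 ± 0.60 (adjusted p = 0.978). It also called 0 of 12 neutrophil genes, with 0 at an unadjusted p under 0.05, 0 by DESeq2 and 0 by limma-voom, and 0 of 7 MHC class II genes, with 0 at an unadjusted p under 0.05, 0 by DESeq2 and 0 by limma-voom. With the compared groups alone edgeR called 2 genes of the neutrophil list, which includes chemokines, higher. The median of the 12, -0.75, was 0.15 without P36 library 3. Of 15 genes of T, NK and B cells 1 was called. It was Trac, a constant part of the T cell receptor, which rose from a median of 0.413 to 1.31 CPM. Its log2 difference was 1.51 ± 0.45 (adjusted p = 0.0147), while Cd3e had 0.72 ± 0.44 (adjusted p = 0.285). Cd9, a tetraspanin of lipid-laden macrophages that other cells share, was the only one of 12 such genes called, at a log2 difference of 1.14 ± 0.27 (adjusted p = 0.00191), and Trem2 and Gpnmb were not, at -0.35 ± 0.42 and -0.41 ± 0.63. Of 29 matrix and stellate cell genes Bgn alone was called, at a log2 difference of 0.58 ± 0.20 (adjusted p = 0.039), and Col1a1 had -0.47 ± 0.52 (adjusted p = 0.598). Of 9 bile duct genes edgeR called 0, with 0 at an unadjusted p under 0.05, 0 by DESeq2 and 0 by limma-voom, and Krt19 and Epcam had 0.35 ± 0.64 and 0.93 ± 0.70. Of 15 genes of the sinusoidal endothelium 2 were called higher and 13 were not called. Bmp2 and Rspo3, signals that endothelial cells send to hepatocytes, rose by 0.52 ± 0.17 (adjusted p = 0.0322) and 0.69 ± 0.23 (adjusted p = 0.0324). Leaving out 1 library in turn ended the call of Bgn in 8 of the 12 fits (adjusted p up to 0.163), Bmp2 in 8 of the 12 fits (adjusted p up to 0.0942) and Rspo3 in 7 of the 12 fits (adjusted p up to 0.116).

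Secreted plasma proteins gave few calls. Of 32 complement and clotting factors 4 were lower (or 7 without P7 library 2) and 0 higher. C9, of the membrane attack complex, was at 206, 237, 315, 254 and 198 CPM on P36 and 67.7 to 130.5 CPM (median 109) on P7. Every P7 library was lower, at a log2 difference of -1.25 ± 0.21 (adjusted p = 2.63e-05), as was the case for Mbl2, a lectin that starts complement, at a log2 difference of -0.99 ± 0.17 (adjusted p = 3.69e-05). F7, clotting factor VII, fell by 0.57 ± 0.16 (adjusted p = 0.00905), and C3 was not called at -0.38 ± 0.23 (adjusted p = 0.274). Among 20 acute phase genes 1 rose and 3 fell, and 0 were called lower without P36 library 3. Apcs, serum amyloid P, rose from a median of 68.2 to 332 CPM, at a log2 difference of 2.03 ± 0.54 (adjusted p = 0.00594). Orm2, one of 3 near copies of orosomucoid, was at 21.7, 35.9, 266, 24.1 and 21.9 CPM on P36, against 4.47 to 20.9 CPM on P7 with a median of 7.55. P36 library 3 stood far above the rest, and the call at -2.82 ± 1.00 (adjusted p = 0.0457) was lost without it, at -1.31 (adjusted p = 0.422). It was also lost in 5 further fits that each left out 1 P7 library, numbers 3 to 7. Orm3, at -2.65 ± 0.74 (adjusted p = 0.00993), lost its call without P36 library 3 alone (adjusted p = 0.147). Orm1 had -1.84 ± 0.56 (adjusted p = 0.0173). Saa1 and Saa2 were not called, at -1.90 ± 1.19 and -2.30 ± 1.36. When each library was left out once, the call was lost for Orm1 without P36 library 3 (adjusted p = 0.0664).

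By position in the lobule, genes of periportal hepatocytes were lower on P7 at 8 of 15 and higher at 0, with a median of -0.73. Aldh1b1, a mitochondrial aldehyde dehydrogenase, was at 104, 52.9, 101, 51.1 and 189 CPM on P36 and 14.6 to 21.0 CPM (median 20.0) on P7. The P7 libraries were tightly grouped below all P36 libraries, at a log2 difference of -2.41 ± 0.28 (adjusted p = 1.06e-08). Of the others Gls2, Hal, Sds, Pck1, Cps1 and Igf1 also belong to lists given above, so the counts are not independent of them. Cdh1, E-cadherin, a periportal gene outside metabolism, had 0.71 ± 0.41 (adjusted p = 0.251) and was not called. Pericentral genes gave 1 higher and 2 lower of 16. Glul, glutamine synthetase of the last ring of cells around the central vein, and Axin2, a target of Wnt there, had -0.03 ± 0.19 and -0.0012 ± 0.22, and Lgr5, the receptor of R-spondins, rose by 0.86 ± 0.29 (adjusted p = 0.0339). With 1 library left out at a time the test no longer called Lgr5 in 8 of the 12 fits (adjusted p up to 0.123).

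Growth and turnover genes gave scattered calls. Cdkn1a, the cell cycle inhibitor p21, was at 6.62, 6.16, 7.92, 5.82 and 7.63 CPM on P36 and 15.2 to 63.7 CPM (median 29.8) on P7. All P7 libraries were higher, at a log2 difference of 2.24 ± 0.54 (adjusted p = 0.00232). It was 1 of 3 higher calls in 27 genes of cell division, where Mki67 and Top2a had -0.12 ± 0.59 and -0.68 ± 0.56. The number higher was 1 without P36 library 6, P7 library 2, P7 library 5 or P36 libraries 1 and 5. Ctsl, the lysosomal protease cathepsin L, was at 567, 393, 513, 448 and 666 CPM on P36, against 764 to 2193 CPM on P7 with a median of 1719.9. It rose in every P7 library above all of P36, at a log2 difference of 1.64 ± 0.20 (adjusted p = 4.13e-08), whereas Ctsb, cathepsin B, and Lamp1, of the lysosomal membrane, fell, at -0.47 ± 0.10 (adjusted p = 0.000944) and -0.65 ± 0.12 (adjusted p = 4.62e-05). Ulk1, the kinase that starts autophagy, rose by 0.62 ± 0.17 (adjusted p = 0.00748), and Map1lc3b and Tfeb were not called, at 0.02 ± 0.10 and -0.21 ± 0.24. Among immediate early genes Ier5 rose by 1.21 ± 0.26 (adjusted p = 0.000727) and Dusp1 fell by 0.76 ± 0.22 (adjusted p = 0.0137), while Fos and Egr1 had -0.30 ± 0.46 and 1.21 ± 0.61. Leaving out 1 library in turn ended the call of Dusp1 without P36 library 3 (adjusted p = 0.0732) and Ulk1 without P36 library 6 (adjusted p = 0.0563).

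Calls of ribosome and respiration genes changed with the libraries left out, among them P7 library 7. Of 76 cytosolic ribosomal protein genes 8 were higher and 0 lower, with a median of 0.19, and without that library 9 were higher and 2 lower, with a median of 0.11. Without P36 libraries 1 and 5 the number higher was 3, and with 1 library left out it was 4 without P36 library 2 or 5 or P7 library 3 or 5 and 5 without P36 library 1 or 6. Of 72 nuclear genes of the respiratory chain 1 was lower, and 7 were lower without P7 library 7. Of the 13 protein-coding genes of mitochondrial DNA edgeR called 0, with 2 at an unadjusted p under 0.05, 0 by DESeq2 and 0 by limma-voom, and 3 lower with the compared groups alone. All genes whose symbols begin with mt- held 8.78% ± 2.05 (SD, n = 5) of counts on P36 and 8.52% ± 1.19 (SD, n = 7) on P7. The difference was -0.264 percentage points in an exact two-sided permutation test (p = 0.765).

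Several of the largest changes belonged to none of these groups. Arhgef2, a microtubule-bound activator of RhoA, was at 4.54, 6.31, 7.73, 4.37 and 6.23 CPM on P36 and 70.1 to 113 CPM (median 81.9) on P7. The groups were more than 9 times apart at their nearest values, with 3.90 ± 0.41 (adjusted p = 1.05e-09). Rap1gap2, which turns off the GTPase Rap1, rose from a median of 0.949 to 12.1 CPM, at a log2 difference of 3.96 ± 0.51, and Sstr2, a receptor for somatostatin, from a median of 1.04 to 11.3 CPM, at a log2 difference of 3.64 ± 0.40. Both were above P36 in every P7 library. Acp3, a phosphatase, was at 4.58, 1.19, 3.64, 4.19 and 6.40 CPM on P36, against 0.0349 to 0.423 CPM on P7 with a median of 0.286. Among the called genes whose log2 CPM averaged 1 or more it had the lowest log2 fold change, -4.02 ± 0.64 (adjusted p = 9.42e-06). Etnppl, a lyase of phosphoethanolamine, was at 240.3, 282, 393, 336 and 209 CPM on P36 and 16.0 to 61.6 CPM (median 35.8) on P7. All P7 libraries were lower, at a log2 difference of -2.95 ± 0.39 (adjusted p = 2.91e-07). Lrtm1, a leucine-rich membrane protein, fell by 2.82 ± 0.49 (adjusted p = 3.62e-05).

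The middle diet gave few calls against P36 and many against P7. The P36 and P7 libraries enter these comparisons again, so that the values are not independent of those above. Of 16087 genes 14 were called between P36 and P21 (0.087%), a number that ran from 4 to 24 with 1 library left out at a time, and between P7 and P21 2087 were higher on P7 (13%) and 2149 lower (13.4%). The sham P21 libraries held 1.84 to 6.26 CPM of Trib3, 4.51 to 7.00 CPM of Arhgef2 and 0.361 to 1.62 CPM of Psat1, all below the lowest P7 library. Alas1 stood between, with P21 at 381 to 1334 CPM (median 768) between the medians of 2358 on P36 and 204 on P7. Its step from P21 to P7 was called at -1.82 ± 0.34 (adjusted p = 7.23e-05), while P36 minus P21, 1.44 ± 0.36 (adjusted p = 0.119), was not. Etnppl was at 67.0 to 135 CPM on P21, with no overlap with either group, and P36 minus P21 did not pass here either, at 1.60 ± 0.38 (adjusted p = 0.086). For a few genes P36 stood apart from both lower diets. Hspa8 was at 1251 to 2107 CPM on P21, and P36 minus P21 was 1.05 ± 0.19 (adjusted p = 0.00537). Inhba was at 14.5 to 22.5 CPM on P21, and P36 minus P21 was -1.31 ± 0.28 (adjusted p = 0.0294). The call of Inhba against P21 was lost in 8 of 12 fits that each left out 1 library (adjusted p up to 0.145), and that of Hspa8 in 0 (adjusted p up to 0.03). Ribosomal protein genes were called higher on P7 than on P21 at 46 of 76, and ER chaperones lower at 21 of 25.

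The same diets in SG mice came from libraries that the sham comparison did not use. Of these 11, 2 went against the rest. The library labelled SG P7 number 7 lacked part of the pattern of the other 6. It held 4.17 CPM of Trib3 against 43.2 to 119 CPM and 4.77 CPM of Arhgef2 against 69.2 to 104 CPM. Acp3, which is low on P7, was at 4.58 CPM against at most 1.28 CPM. Other genes kept this library on the side of SG P7. Nr1d1 was at 105 CPM against 9.72 to 19.2 CPM in SG P36, and Cry1 at 7.33 CPM against 18.7 to 34.1 CPM. SG P36 library 1 held 1093 CPM of Hmox1 against at most 42.1 CPM in the other SG P36 libraries. It also held 34 CPM of Adipoq, made by fat cells, against at most 1.15 CPM in the others, and 121 CPM of Star, which moves cholesterol for steroid synthesis and was chosen after its values were seen, against at most 1.54 CPM. Of 9 fat cell genes 4 were lower on P7 in SG mice and 1 without the 2 libraries, and the part of other tissue in the SG results was not tested. In SG mice 1635 genes were higher on P7 (10.2%) and 1391 lower (8.65%), so that 54.0% of the calls were higher, against 66.6% by limma-voom without scaling. Without those 2 libraries 1626 were higher (10.1%) and 1435 lower (8.92%). The ISR list gave 12 of 20 higher with all libraries and 15 without the 2, with 0 lower in both. Trib3 had an SG log2 fold change of 4.88 ± 0.51 (adjusted p = 6.18e-10), or 5.74 (adjusted p = 1.94e-13) without the 2 libraries. SG P7 library 7 was set apart by its low Trib3 among other genes. A stronger ISR effect without it thus followed in part from that choice. Alas1 fell in SG mice, at -2.48 ± 0.38 (adjusted p = 4.03e-06) and Lepr rose by 3.42 ± 0.52 (adjusted p = 3.93e-06). Export genes of the secretory route were lower at 15 of 34, or 16 without the 2.

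Other groups gave fewer or more calls in SG mice, and for these the difference itself is what counts. ER chaperones were lower at 3 of 25 (or 6 without the 2 libraries), interferon-induced genes at 2 of 30 (or 3) and fat synthesis genes at 14 of 23 (or 14). Genes of fat oxidation were higher at 18 of 32 (or 15). The test of the difference between the SG and sham effects called 24 of 16087 genes (0.149%), 11 higher and 13 lower in SG (45.8% higher, against 83.3% of 18 calls by limma-voom without scaling), and no member of these 4 lists was among them. Without the 2 SG libraries it called 12 higher and 11 lower. Herpud1, which is in both the ISR and the ER chaperone list, was then among them at 1.51 (adjusted p = 0.0373), as was Atf5 of the ISR list at 1.87 (adjusted p = 0.00696). Atf5 stood at 279 CPM in SG P7 library 7 against 611 to 1050.3 CPM in the other SG P7 libraries. Its call thus rests in part on leaving that library out. The count of 24 ran from 6 without sham P36 library 5 to 118 without SG P36 library 2, and was 72 without sham P7 library 7. Derl3, for example, stood at 1.45, 2.00, 1.33 and 2.57 CPM in the SG P36 libraries, at the level of the sham P7 libraries. Its SG minus sham difference was 4.62 ± 1.18 (adjusted p = 0.0749), which did not pass. SG P7 library 7 held 18.2 CPM, and without the 2 libraries the difference was 3.27 (adjusted p = 0.301) and the SG log2 fold change went from 1.11 to -0.24. Asns was at 14.2, 5.61, 26.4 and 24.4 CPM in SG P36, above all sham P36 libraries, and its difference was -3.17 ± 0.86 (adjusted p = 0.101), or -3.07 (adjusted p = 0.139) without the 2. The interval of such differences is wide at this number of libraries, so a p over the threshold does not show that both kinds of mice answered alike.

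**Figure D4:**
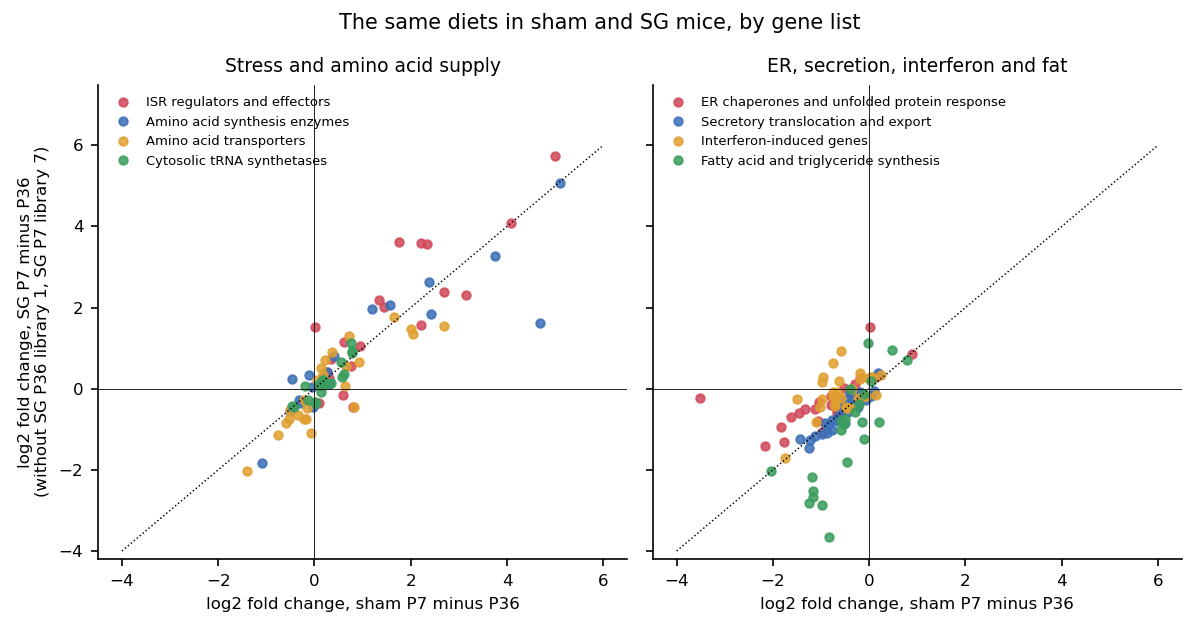
Log2 fold changes of P7 minus P36 in sham mice (horizontal axis) and in SG mice (vertical axis, without SG P36 library 1 and SG P7 library 7) for the tested members of 8 gene lists, one point per gene, with a dotted line where both are equal. Trib3 lies at 5.0 and 5.74, Atf5 lies above the line at 1.75 and 3.62 and Herpud1 at 0.02 and 1.53, and Asns lies below it.

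Clock genes were among the few whose effect differed between SG and sham mice. Nr1d1 was at 19.2, 18, 12.7 and 9.72 CPM in the SG P36 libraries and at 81.5 to 127 CPM in the SG P7 libraries. The SG P36 values were lower than those of any sham P36 library, while the P7 values of both kinds of mice covered a like range. The difference of effects was 1.84 ± 0.32 (adjusted p = 0.00402), and 1.98 (adjusted p = 0.00696) without the 2 libraries. Dbp had 2.14 ± 0.46 (adjusted p = 0.0323), or 2.44 (adjusted p = 0.0152) without them. Bmal1 went the other way, at -2.12 ± 0.50 (adjusted p = 0.0556), or -2.36 (adjusted p = 0.042) without them. Of 19 clock genes 3 were then called higher and 1 lower. The clock time of collection for each mouse is not given here either, and its part was not tested. With each of 23 libraries left out in turn, Nr1d1 kept its call (adjusted p up to 0.0214) and Dbp lost it in 6 fits (adjusted p up to 0.0966). Raet1d, a ligand of the NKG2D receptor, and Rcan2, a regulator of calcineurin, had 2.02 ± 0.44 (adjusted p = 0.0323) and 1.81 ± 0.39 (adjusted p = 0.0323). Neither call was kept without the 2 libraries (adjusted p = 0.0978 and 0.0752). The 4 lowest differences by the same rule were Hmox1, Akr1b8, an aldo-keto reductase, Btg3, an inhibitor of proliferation, and Slc1a4, a carrier of neutral amino acids. In each the highest of the SG libraries was SG P36 library 1, for Hmox1 at 1093 CPM. Hmox1 went from -4.26 ± 0.77 (adjusted p = 0.00402) to -0.78 (adjusted p = 0.727) without that library and SG P7 library 7, and Star from -4.53 ± 0.81 (adjusted p = 0.00402) to -0.29 (adjusted p = 0.924). None of the other 3 kept its call (adjusted p = 0.58, 0.32 and 0.177). Some lower calls that the rule did not name were kept. Flt1, of the endothelial list, had -1.17 ± 0.19 (adjusted p = 0.00163), or -1.06 (adjusted p = 0.00696) without the 2 libraries. Hapln1, Gulo and Tspyl4 also stayed called below 0 without them (adjusted p = 0.0114, 0.0496 and 0.0373), and the remaining lower calls were lost.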

How the data were processed

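Liver RNA of single mice was read as stranded poly(A) libraries, per the labels' protocols. The authors deposited expected counts per gene (RSEM), named by column for 57 of 62 labelled samples. Their processing notes name build GRCm39, R 4.4.1, edgeR and limma, without roles. From the authors' deposited table of log2 fold changes, F scores and p-values only gene symbols were read. Symbols came from it for 15523 IDs and from the GRCm38 annotation for 36760.

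The expected counts were rounded, filtered with filterByExpr, scaled by TMM and fitted with edgeR 4.0.16 (R 4.3.3) over 9 groups with 2 or more libraries (56 libraries, 47 residual degrees of freedom, biological coefficient of variation 28.2%). CPM use TMM library sizes. DESeq2 1.42.0, limma 3.58.1, RLE scaling, no filter, the compared groups alone and left-out libraries were alternatives, and limma-voom without scaling and the fits without several doubtful libraries were added after seeing the data. The fit was tested on simulated data. None of 31 pairs of libraries within a group agreed within counting noise.

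The gene lists and the comparison were chosen with earlier results of these data known. Named genes are the 10 highest and 10 lowest called among genes whose log2 CPM averaged 1 or more, up to 6 members of each list by adjusted p, up to 4 more per list and a fixed set of 20 genes. Genes named only for their motif matches were chosen by those matches. Some items that this rule names are not reported here. P-values measure the spread between mice, in the main edgeR fit over all groups fitted and not only those compared. Cage mates were not marked. Promoters are RefSeq's for GRCm38.p6, and their coordinates are not those of GRCm39.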

Additional observations from a re-analysis of the deposited data

Results flagged for a closer look

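Of 484 sets of values (each gene named, and the mitochondrial share, in the P36 and in the P7 libraries) 35 had 1 library far from the rest by Dixon's ratio on log2 CPM, where chance gives about 1 in 20, and 18 of the 35 were P7 library 7. That library held the highest P7 value of Apoa1 (14424 CPM), Apoa5 (1040.2 CPM), Cebpb (24.9 CPM), Creb3l3 (279 CPM), Egr1 (37.9 CPM), Igfbp2 (1175 CPM), Isg15 (22.5 CPM), Ivd (160.5 CPM), Sds (70.0 CPM), Slc38a3 (1558 CPM) and Syvn1 (110.0 CPM). It held the lowest P7 value of Apcs (125 CPM), Btg3 (2.00 CPM), Dnajb9 (12.8 CPM), Elovl3 (57.5 CPM), Pygl (148 CPM), Slc25a13 (96.7 CPM) and Spcs3 (18.5 CPM). P36 library 2 lay above its group for Cebpg (92.1 CPM), Hsph1 (137 CPM), Sec24d (121 CPM) and Star (2.12 CPM) and below it for Arg1 (891 CPM), Shmt2 (169 CPM) and Slc43a1 (2.19 CPM). P36 library 3 lay above for Bmal1 (5.94 CPM) and Orm2 (266 CPM) and below for Ghr (391 CPM). P36 library 1 had the highest value of its group for Gsta3 (1805 CPM). P36 library 6 had the highest value of its group for Aldh4a1 (496 CPM) and Sqor (155 CPM). P7 library 2 had the highest value of its group for Tnnt3 (0.141 CPM). P7 library 3 had the highest value of its group for Krt19 (5.07 CPM). P7 library 4 had the highest value of its group for Raet1d (20.8 CPM). P7 library 6 had the highest value of its group for Adipoq (0.591 CPM).

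The change from P36 to P7 differed between SG and sham mice by edgeR's interaction test for 9 of the 241 genes counted as named. Flt1, Hapln1, Gulo and Tspyl4 were given above for their calls in that test. They are not among the 241 or the sets of values above. The SG minus sham difference on the log2 scale was above 0 for Dbp (2.14 ± 0.46, adjusted p = 0.0323), Raet1d (2.02 ± 0.44, adjusted p = 0.0323), Nr1d1 (1.84 ± 0.32, adjusted p = 0.00402) and Rcan2 (1.81 ± 0.39, adjusted p = 0.0323). It was below 0 for Star (-4.53 ± 0.81, adjusted p = 0.00402), Hmox1 (-4.26 ± 0.77, adjusted p = 0.00402), Akr1b8 (-2.04 ± 0.45, adjusted p = 0.0341), Btg3 (-2.03 ± 0.46, adjusted p = 0.0369) and Slc1a4 (-2.01 ± 0.42, adjusted p = 0.0227), and in these SG P36 library 1 held the highest SG P36 value. The part that single libraries play in these values is given beside the comparison of SG and sham mice. Explanations were not tested.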

How the results depend on the processing

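The count of calls between P7 and P36 in sham mice stayed within 1.5 times of 2522 under RLE scaling (2534), no filter (1965), DESeq2 (2769), limma-voom (2615), limma-voom without scaling (2219), the compared groups alone (2276) and 12 fits that each left out 1 library (1941 to 2675), and moved to 1448 without P36 libraries 1 and 5. The 24 genes whose effect differed between SG and sham mice became 13 with no filter, 89 with DESeq2, 10 with limma-voom, 3 with the compared groups alone, 6 to 118 with 1 library left out, 7 without sham P36 libraries 1 and 5, 43 without sham P36 library 3 and sham P7 library 7, and 48 without sham P7 library 7, SG P36 library 1 and SG P7 library 7. The 14 genes between P36 and P21 became 36 with DESeq2, 4 with limma-voom with or without scaling, 61 with the compared groups alone, 4 to 24 with 1 library left out and 6 without sham P36 library 3 and sham P7 library 7. The mitochondrial share of counts differed by -0.648 to 0.327 percentage points with 1 library left out, and the sign turned without P36 library 3 (0.266, exact permutation p = 0.788) and library 5 (0.327, p = 0.764). The cause of these moves was not tested. Of 241 genes named, 1 changed direction after a call, the muscle gene Atp2a1 at 0.33 without P36 libraries 1 and 5. Of the 161 called, 34 lost the call in at least 1 fit that left out 1 library, and 30 others than Atp2a1 lost it without P36 libraries 1 and 5. No paired analysis was possible because the library numbers follow accession order and the labels name no shared litter, cage or batch. With the promoter window cut to 200 bases before the start, 2.87% of promoters held TGATGNAA and 0.103% the ERSE. Of tested genes with a promoter 2.03% and 0.145% held them. The lists gave 4 of 19 ISR genes, 3 of 13 tRNA synthetases and 3 of 15 synthesis enzymes with TGATGNAA. Of 21 ER genes 9 held the ERSE. In simulated counts for the sham comparison, the test called 38.8% of genes given a 1.5-fold change, 65.7% at 2-fold and 90.9% at 4-fold, so that smaller changes were often not detectable with 5 and 7 libraries.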
